A study of Mus musculus with 8 samples.

Results

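RNA that came down with an anti-V5 antibody was compared with RNA that came down with normal mouse IgG, the mock precipitation, in lysates of testis that carried the tagged RNA-binding protein Dazl-GFP-V5. The comparison used the 4 arrays whose titles name the V5 precipitate (2 arrays) or the IgG mock (2 arrays), out of 8 arrays in the series. The remaining arrays, 2 of input RNA and 2 of a GFP precipitate, entered the filter and choice of probes and the shared estimate of spread. All 8 samples were labelled as male mice of a mixed C57BL/6 and 129SV strain at postnatal day 14, and every group, the mock included, carried Dazl-GFP-V5. Testes were dissociated and lysed, the precipitation was native, without UV crosslinking, and RNA was hybridised in a single colour to an Agilent whole-genome mouse array. The labels do not say whether the arrays of a group came from separate animals, so the p-values measure the spread between these arrays, which may be technical. With 2 arrays against 2, an exact permutation test of a single gene cannot go below p = 0.333, so single genes were tested with limma over all genes.

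Dazl is a germ-cell RNA-binding protein of the DAZ family. It binds U-rich sites in the 3′ untranslated regions of mRNAs, associates with poly(A)-binding protein and is known for supporting the translation and stability of its targets. It is required for germ cells to enter and complete meiosis. In a native precipitation with a tag antibody, transcripts held by the tagged protein are sought as an excess over what the control antibody and the beads carry down.

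The labels disagree in places. The series text names PABP1 as the target of the second antibody where the sample labels name GFP, and the free descriptions of V5 replicate 1 and input replicate 2 contradict their titles, the former calling it total RNA. Titles were followed. Across the measured genes, V5 replicate 1 correlated at 0.997 with V5 replicate 2 and at 0.951 with each input array, and the IgG arrays correlated at 0.994 with each other and at 0.979 to 0.987 with the V5 arrays. Probes were well above background on 58.5% to 61% of the array on the 4 V5 and IgG arrays, with no saturated spot on any of them. Both IgG arrays and both input arrays lay on one slide and both V5 and both GFP arrays on another, so slide and antibody cannot be told apart. The same holds for V5 against input, so input is not a reference free of the slide. The cell type label names germ cells. The germ-cell genes Dazl, Ddx4, Sycp3 and Sycp1 were above background on all 4 arrays, and so were 25 of 27 measured markers of Sertoli, Leydig, myoid, macrophage, endothelial and red blood cells, with no defining marker set at 0.

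Levels below are log2 signals minus the 75th percentile of the same array, and differences are V5 minus IgG on that scale. Over 17570 genes the difference ranged from -3.32 to 3.51, with a median of -0.21 and a middle 50% from -0.42 to 0.12. limma called 2934 genes higher with V5 (16.7% of those tested) and 7090 lower (40.4%) at a Benjamini-Hochberg adjusted p under 0.05. Because the median itself lay below 0, a stricter rule was used for gene groups. A gene was counted as strongly higher or lower if it was called and lay at least 1.5-fold beyond the median of all genes in that direction. By this rule 2270 genes were strongly higher (12.9%) and 1146 strongly lower (6.52%), and these shares are the background for the counts that follow. A gene entered if both arrays of any group, input and GFP included, read it above background. Strong counts therefore include genes that passed only through a brighter group.

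The scale of the comparison sets which way most small differences point. When arrays were scaled to the 7 usable spike-in probes in place of the 75th percentile, the median of all genes moved from -0.21 to 0.16 and the share of calls that were higher went from 29.3% to 87.2%. The strong counts were 2403 higher and 782 lower under that scaling. The 103 genes named below as higher kept their call under spike-in scaling, whereas 25 of the 58 named as lower did so. Within a fit, input arrays enter only the estimate of spread. They also entered the filter on dim probes and the choice of probe, which stayed the same in these fits. Leaving out V5 replicate 1 and input replicate 2 together therefore gives the same differences as leaving out V5 replicate 1 alone. The calls of these 2 fits differ only through the estimate of spread and its degrees of freedom, and each fit holds 1 V5 array. Leaving out V5 replicate 1 reduced the calls to 1925 higher and 4106 lower, and leaving out V5 replicate 2 reduced the lower calls to 4376. Without the 2 arrays whose descriptions contradict their titles, V5 replicate 1 and input replicate 2, 657 genes were strongly higher and 496 strongly lower, and counts for the gene groups below are also given from that fit, called the reduced fit. Strong counts of none in the groups below were at most 2 with any 1 of the 4 V5 and IgG arrays left out.

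**Figure D1:**
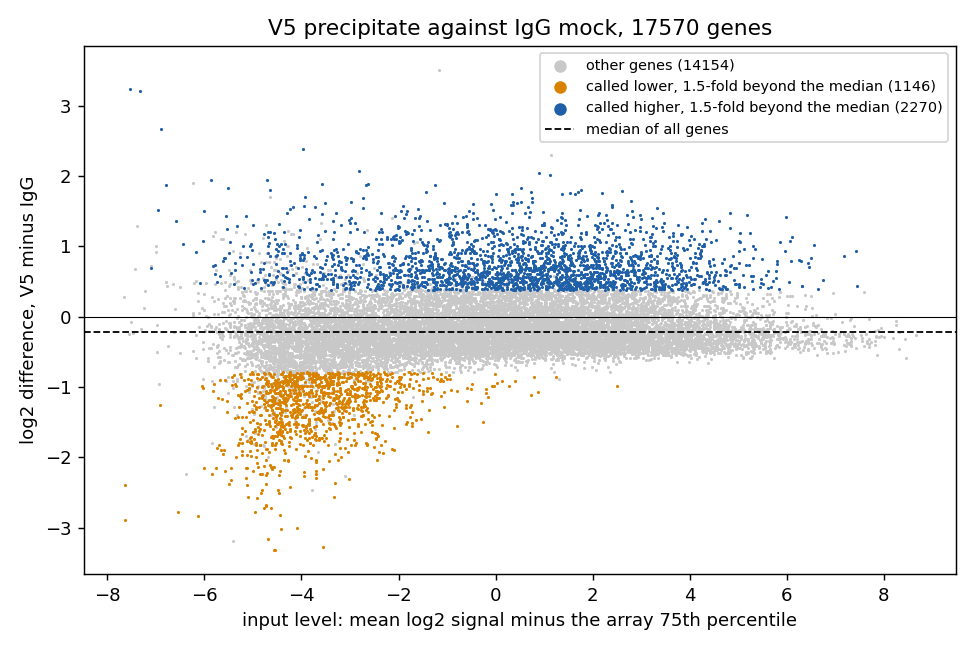
Each point is a gene, with its mean level on the 2 input arrays on the x axis and the log2 difference V5 minus IgG on the y axis. The 2270 strongly higher genes (blue) spread over the whole range of input levels, and the 1146 strongly lower genes (orange) sit mostly at low levels, below the dashed line at the median of all genes.

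Ube2v2 and Taf7 had the largest excess in the V5 precipitate among genes with a gene symbol that were above background on all 4 arrays. The 15 highest such genes lay between 3.1-fold and 4.1-fold above IgG. Ube2v2, a ubiquitin-conjugating enzyme variant, had levels of -0.46 and -0.59 with V5, -2.14 and -2.98 with IgG and 0.85 and 0.94 in input. The V5 arrays did not overlap the IgG arrays and lay below input, and the difference was 2.04 (SE 0.26, adjusted p = 0.0026). Taf7, a subunit of the general transcription factor TFIID, had levels of 0.26 and 0.18 with V5 against -1.59 and -2.01 with IgG and 1.14 and 1.1 in input. It was 4.05-fold higher (difference 2.02, SE 0.14, adjusted p = 0.00075), again between IgG and input.

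Other genes rose above input as well as above IgG. Elavl2, an RNA-binding protein of the ELAV family, had levels of 3.82 and 3.61 with V5, 2.07 and 1.84 with IgG and 2.18 and 2.21 in input. Dck, the deoxycytidine kinase of the nucleoside salvage pathway, had levels of 2.04 and 1.82 with V5, 0.24 and 0.13 with IgG and -0.03 and 0.02 in input. For both genes IgG and input, which shared a slide, lay close together and the V5 arrays stood clear of both. The differences were 1.76 for Elavl2 (SE 0.12, adjusted p = 0.00075) and 1.74 for Dck (SE 0.091, adjusted p = 0.00074). The same order held for Rnf138, a ubiquitin ligase, with levels of 3.62 and 3.45 with V5, 2.05 and 1.44 with IgG and 2.58 and 2.61 in input. Eef1e1, a component of the aminoacyl-tRNA synthetase complex, was at 4.13 and 3.93 with V5, 2.44 and 2.32 with IgG and 2.71 and 2.87 in input. In 9 of the 15 genes both V5 arrays lay above both input arrays, and in the other 6 both lay below.

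The remaining genes of this group were Nxt2, an mRNA export cofactor (difference 1.87), C1d, a cofactor of the nuclear exosome (1.83), Vbp1, a prefoldin subunit (1.80), Spbc25, now Spc25, of the outer kinetochore (1.78), Hccs, the enzyme that attaches heme to cytochrome c (1.74), Cetn2, a centrin (1.74), Tcea1, a transcription elongation factor (1.74), Mbtps2, a membrane-bound protease (1.69), and Ppil5 (1.63). Hccs, Cetn2, Nxt2, Vbp1 and Mbtps2 map to chromosome X. Of the 496 measured genes assigned to chromosome X, 23% were strongly higher, against 12.9% of all genes and 7.4% to 20.1% on the autosomes. Where a gene of this group had several probes, every probe pointed the same way, but some differed in size. Probes ranged from 0.37 to 2.04 for Ube2v2, 0.59 to 1.79 for Rnf138 and 0.65 to 1.83 for C1d. For Vbp1 they lay between 1.80 and 1.86. The ranking rests on the brightest probe of each gene.

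**Figure D2:**
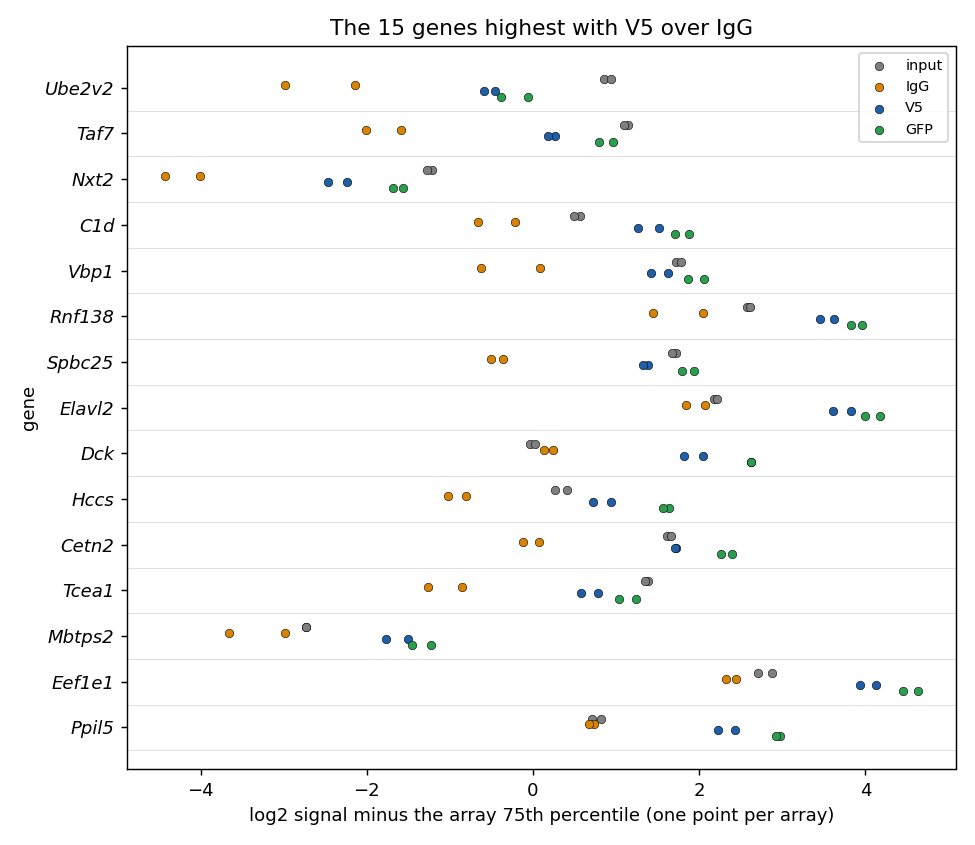
Levels of the 15 highest genes on each of the 8 arrays (x axis, log2 signal minus the array's 75th percentile; one point per array, coloured by group). The blue V5 points lie to the right of the orange IgG points for every gene, and for Elavl2, Dck, Rnf138, Eef1e1 and Ppil5 the grey input points lie nearer the IgG points than the V5 points.

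Set against input, the strongly higher genes divided. Their median level was 0.84 and 0.76 on the V5 arrays, 0.17 and 0.03 on the IgG arrays and 0.63 and 0.62 on the input arrays. Both V5 arrays lay above both input arrays in 1368 of the 2270 genes (60.3%) and below them in 729 (32.1%), against 45.1% and 44.6% of all genes. These V5 values are the ones that chose the genes, so the shares describe the set and carry no test. V5 lay on another slide than input, as it did than IgG.

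The Dazl transcript itself was in excess in the V5 precipitate, and so were those of several of its reported partners. Dazl had levels of 2.84 and 2.71 with V5, 2.01 and 1.58 with IgG and 3.83 and 3.91 in input. The V5 arrays stood above IgG and below input, with a difference of 0.98 (1.97-fold, SE 0.15, adjusted p = 0.0040). Of 14 measured genes in the list of Dazl and its partners, 6 were strongly higher and none strongly lower, with a median of 0.34 against -0.21 for all genes. Dazl, Nanos1, Dazap2, Pum2 and Boll were among them.

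Nanos1, a Nanos-family partner of Pumilio proteins, was at -0.53 and -0.58 with V5, at -1.39 and -1.57 with IgG and at -1.63 and -1.58 in input. Dazap2, a DAZ-interacting protein, was at 6.28 and 6.37 with V5 against 5.54 and 5.51 with IgG and 5.78 and 5.8 in input. Both genes stood above IgG and above input on each V5 array, by 0.92 (SE 0.085, adjusted p = 0.0012) and 0.80 (SE 0.075, adjusted p = 0.0012) over IgG. Pum2, a repressor that binds 3′ untranslated regions, was at 1.65 and 1.51 with V5 against 1.18 and 0.96 with IgG (difference 0.51, adjusted p = 0.0065), and Boll, the DAZ-family paralogue of later meiosis, at 1.14 and 1.01 against 0.66 and 0.72 (difference 0.39, adjusted p = 0.0075).

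The other partners differed by less or in the opposite direction. Dynll1, the dynein light chain that binds Dazl, and Dnd1, a germ-cell RNA-binding protein, were called higher by 0.30 (adjusted p = 0.027) and 0.27 (adjusted p = 0.042). Dynll1 lost its call without V5 replicate 1 (adjusted p = 0.14) or IgG replicate 2 (adjusted p = 0.095), and Dnd1 lost it whichever of the 4 arrays was left out (adjusted p between 0.059 and 0.19). Nanos3 was lower, at -2.86 and -2.88 with V5 and -2.41 and -2.21 with IgG (difference -0.56, adjusted p = 0.0047), a call lost under spike-in scaling. Dazap1 was called lower by a difference of -0.21 (adjusted p = 0.047), the same as the median of all genes. Its call was lost without either V5 array (adjusted p = 0.10 without V5 replicate 1 and 0.18 without V5 replicate 2) or without IgG replicate 2 (adjusted p = 0.14), and its difference was 0.15 under spike-in scaling. Pabpc1, the cytoplasmic poly(A)-binding protein, was at 6.22 and 6.45 with V5 and 6.71 and 6.41 with IgG. The groups overlapped (difference -0.22, adjusted p = 0.15, and 0.14 under spike-in scaling). Qk (0.05, adjusted p = 0.72) and Dzip1 (0.06, adjusted p = 0.53) were not called. The Qk value is that of its brightest probe, the lowest of 4 probes that ranged from 0.05 to 1.03. Nanos2, not well above background with IgG, was not called either (adjusted p = 0.11). Against the lowest signal well above background its V5 level was at least 1.24-fold higher.

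Among 11 transcripts reported earlier as bound by Dazl, 6 were strongly higher and none strongly lower, with a median of 0.49. Dazl is in both lists and is counted in each. Sycp3, which encodes a lateral-element protein of the synaptonemal complex and is a classical Dazl target, was at -1.37 and -1.38 with V5, at -2.51 and -3.13 with IgG and at 2.06 and 2.16 in input. It was 2.73-fold above IgG (difference 1.45, SE 0.20, adjusted p = 0.0032), while both precipitates lay far below input. Tex19, now Tex19.1, a germ-cell protein, showed the other arrangement, with 6.18 and 6.29 on the V5 arrays, 5.45 and 5.5 on the IgG arrays and 4.13 and 4.12 in input. Its V5 arrays were above IgG (difference 0.76, SE 0.086, adjusted p = 0.0019), and both precipitates were above input.

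Tbpl1, a TATA-binding-protein-like factor needed for spermatids, was at 4.89 and 4.73 with V5 against 3.98 and 3.93 with IgG (difference 0.85, adjusted p = 0.0015). Sdad1 was at 4.51 and 4.52 against 3.79 and 3.56 (difference 0.84, adjusted p = 0.0018). That value is from the brighter of 2 Sdad1 probes, and the other gave 0.04. Ddx4, the germ-cell RNA helicase also called Vasa or Mvh, was at 3.18 on both V5 arrays, at 2.97 and 2.48 with IgG and at 4.37 and 4.29 in input. Its groups did not overlap (difference 0.46, adjusted p = 0.042), and the call was lost without V5 replicate 1 (adjusted p = 0.13), V5 replicate 2 (adjusted p = 0.12) or IgG replicate 2 (adjusted p = 0.086). Grsf1, an RNA-binding protein, was higher by 0.37 (adjusted p = 0.015) but not without V5 replicate 1 (adjusted p = 0.082) or IgG replicate 2 (adjusted p = 0.062). Crisp2 differed by 0.49 (adjusted p = 0.068). Pam (0.12), Cdc25a (-0.06) and Cdc25c (0.07) were not called, with adjusted p of 0.42 to 0.54, and each had 2 probes that pointed in opposite directions. In the reduced fit 2 of the 14 partner genes and 3 of the 11 reported transcripts were strongly higher.

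**Figure D3:**
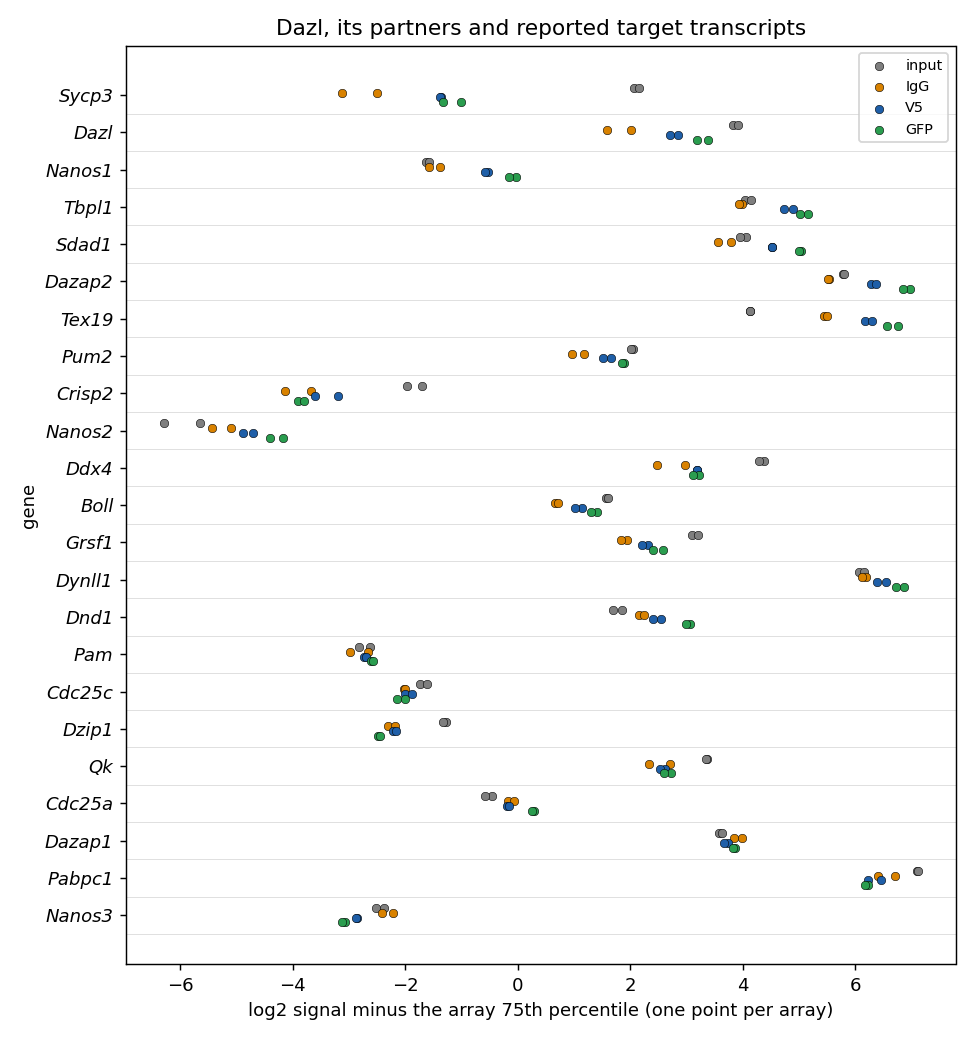
Levels of Dazl and of partners and transcripts reported as bound by it on each of the 8 arrays (x axis, log2 signal minus the array's 75th percentile), ordered by the difference V5 minus IgG. Input points lie far to the right of both precipitates for Sycp3 and to the left of both for Tex19, while V5 lies to the right of IgG for both genes.

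Several families of RNA-binding proteins held many transcripts with an excess, while others did not. Of 34 measured hnRNP and SR proteins, the splicing regulators that bind pre-mRNA, 21 were strongly higher and none strongly lower (median 0.59). Hnrpf, now Hnrnpf, was at 6.16 and 5.96 with V5, 5.03 and 4.98 with IgG and 5.87 and 5.83 in input, a 2.08-fold excess over IgG. Sfrs2, now Srsf2, was at 5.37 and 5.22 against 4.25 and 4.27 (difference 1.04). Hnrpr, now Hnrnpr, and Sfrs11 were higher by 0.88 and 0.91 and remained below input on all V5 arrays. Of 3 Sfrs11 probes, 2 were higher.

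In the ELAV and CELF families, which bind AU-rich and GU-rich elements, 8 of 14 genes were strongly higher and none strongly lower (median 0.54). Beside Elavl2 these included Elavl4 (difference 1.26), the broadly expressed Elavl1, also called HuR, at 3.65 and 3.44 with V5 against 2.39 and 2.5 with IgG (difference 1.10), and Cugbp1, now called Celf1 (0.81). Khsrp, which promotes decay of mRNAs with AU-rich elements, was lower, at 1.4 and 1.39 with V5 against 2.01 and 2 with IgG (difference -0.61, adjusted p = 0.0013). It remained lower under spike-in scaling.

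Regulators of poly(A) tail length rose in number too. Among 45 measured, 20 were strongly higher and none strongly lower (median 0.30). Paip2, an inhibitor of poly(A)-binding protein, was at 4.84 and 4.7 with V5 against 3.83 and 3.68 with IgG (difference 1.01, adjusted p = 0.0014). Cstf2t, the testis paralogue of a cleavage stimulation factor subunit, was at 3.25 and 3.15 against 2.21 and 2.25 (0.97), and the deadenylase Cnot6l at 1.11 and 1.07 against 0.32 and 0.18 (0.84). Cnot3, another subunit of the CCR4-NOT deadenylase, and Pabpc2, a testis poly(A)-binding protein, were called lower by differences of -0.59 and -0.47. These 2 calls were lost under spike-in scaling.

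Translation initiation factors and RNA helicases did not stand apart as groups. Of 46 initiation factors, 10 were strongly higher and none strongly lower, and their median of -0.19 was close to that of all genes. Within the group Eif5a2, the less common paralogue of the hypusine-bearing factor, was at 1.43 and 1.35 with V5, 0.00 and -0.27 with IgG and -0.05 and -0.07 in input (difference 1.52, adjusted p = 0.00075). Eif1b (0.87), Eif3s1, now Eif3j1 (0.84), and Eif5 (0.74) were also higher, with 2 of 3 Eif3s1 probes higher. Eif3s4, now Eif3g, was at 6.43 and 6.47 against 6.81 and 6.92 (difference -0.41), a call lost under spike-in scaling. Of 51 DEAD and DEAH box helicases, 4 were strongly higher and 1 strongly lower (median -0.13). The count of higher helicases was 10 without IgG replicate 1 and 2 when any other of the 4 arrays was left out, and no helicase was strongly lower without V5 replicate 1 or IgG replicate 1. In the reduced fit the strongly higher counts were 10 hnRNP and SR proteins, 4 ELAV and CELF genes, 6 poly(A) regulators, 4 initiation factors and no helicase.

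TFIID, the factor to which Taf7 belongs, held further genes with an excess. Of 22 measured TFIID subunits and germline paralogues, 13 were strongly higher and none strongly lower (median 0.51). Beside Taf7, Taf9 was at 4.22 and 4.1 with V5, 2.95 and 2.66 with IgG and 4.53 and 4.7 in input (difference 1.36), with 2 of its 3 probes higher. Taf7l, the germ-cell paralogue of Taf7, was at 2.71 and 2.56 against 1.61 and 1.46 (1.10), and Taf13 was higher by 0.98. Taf10 was at 4.46 and 4.25 against 4.72 and 4.83 (difference -0.42), a call lost under spike-in scaling. In the Mediator complex, which links transcription factors to RNA polymerase, 11 of 29 genes were strongly higher and none strongly lower (median 0.24), among them its kinase Cdk8 (difference 1.16) and Med19 (0.91).

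Polycomb group genes, which encode chromatin repressors, had 14 of 33 members strongly higher and none strongly lower, with a median of 0.11. Pcgf5 was at 5.44 and 5.29 with V5, 4.24 and 4.31 with IgG and 4.47 and 4.6 in input (difference 1.09), and Yaf2 at 4.81 and 4.82, 3.89 and 3.84, and 3.22 and 3.14 in the same order (0.95). In both genes the V5 arrays stood above IgG and input. Pcgf3 was higher by 0.72. The reduced fit left 8 TFIID, 2 Mediator and 6 Polycomb genes strongly higher. For 223 Zfp zinc finger genes the counts were 39 strongly higher and 3 strongly lower (median -0.01), with 24 strongly higher without V5 replicate 1, and 9 strongly higher and 2 strongly lower in the reduced fit. Of the 199 above background on all 4 arrays, 36 were strongly higher and 2 strongly lower.

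More spermatogonial genes were called higher than lower in both lists examined. In the list for differentiating spermatogonia, 10 of 15 measured genes were strongly higher and none strongly lower (median 0.56). Dmrt1, a transcription factor that controls the switch from mitosis to meiosis, was at 1.1 and 1.27 with V5, -0.39 and -0.5 with IgG and 0.36 and 0.34 in input (3.1-fold, SE 0.081 log2, adjusted p = 0.00072). Kit, the receptor that marks differentiating spermatogonia, was at 2.37 and 2.25 with V5, 1.05 and 1.15 with IgG and 0.93 on both input arrays (difference 1.21, adjusted p = 0.00075). Dppa3, also called Stella, was at -2.53 and -2.62 with V5, -4.05 and -4.27 with IgG and -3.91 and -4 in input (difference 1.58). All V5 arrays stood above IgG and input for these genes. Rec8L1, now Rec8, a meiotic cohesin subunit also in this list, was lower (-0.53), a call lost under spike-in scaling.

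Among 20 measured genes of undifferentiated spermatogonia, 8 were strongly higher and none strongly lower (median 0.31). Lin28, now Lin28a, an RNA-binding regulator of let-7 microRNAs, was at 0.69 and 0.57 with V5, -0.4 and -0.53 with IgG and -1.19 and -1.23 in input (difference 1.10, adjusted p = 0.00077). Foxo1, a transcription factor of the stem-cell pool, was higher by 0.73, and Bcl6b by 0.45. Sall4 was higher by 0.76 at its brightest probe, but 1 of its 2 probes was not higher and their mean gave 0.12 (adjusted p = 0.32). Utf1 was at -3.23 and -3.38 with V5 against -2.59 and -2.48 with IgG (difference -0.77, adjusted p = 0.0022), and Neurog3 was lower by a difference of -0.54. The Neurog3 call was lost under spike-in scaling and that of Utf1 was not.

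Of 24 measured pluripotency and primordial germ cell factors, 10 were strongly higher and 1 strongly lower, although the median was -0.13. The higher ones included Lin28b (difference 1.10) and Mycn (0.83), and Dppa2, at -3.37 and -3.59 with V5 against -2.76 and -2.55 with IgG, was lower by a difference of -0.82. The number strongly lower was 2 without V5 replicate 1, 3 without IgG replicate 1 and 0 without V5 replicate 2 or IgG replicate 2. By the reduced fit 8 differentiating, 3 undifferentiated and 7 pluripotency genes were strongly higher, and 1 undifferentiated and 2 pluripotency genes strongly lower.

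Meiotic genes differed by complex. In the synaptonemal complex list 5 of 9 measured genes were strongly higher and none strongly lower. Its median was 0.72, which fell to 0.33 without IgG replicate 2. Beside Sycp3 these included Tex12, a central-element protein, at 4.23 and 4.02 with V5, 3.01 and 2.44 with IgG and 3.17 and 3.27 in input (difference 1.40, SE 0.18, adjusted p = 0.0027). Syce2, another central-element protein, was at 5.02 and 5.06 against 4.41 and 4.24 (0.72), and Six6os1 was higher by 1.03 with 3 of 4 probes higher. Sycp1, the transverse-filament protein, looked at after its values were seen, was at -3.69 and -3.43 with V5, -3.18 and -3.75 with IgG and 2.74 and 2.64 in input. Like Sycp3 it was far lower in both precipitates than in input, but its V5 and IgG arrays overlapped (difference -0.1, adjusted p = 0.68), and the difference was 0.16 with quantile normalization, 0.27 under spike-in scaling, 0.03 without V5 replicate 1 and 0.19 without IgG replicate 1.

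Recombination and cohesin lists had medians near 0, which lay 0.27 and 0.28 above the median of all genes. Of 23 recombination genes, 2 were strongly higher and none strongly lower (median 0.07). Mnd1, a strand-exchange cofactor, and Trip13, an ATPase that remodels HORMA-domain proteins, were higher by 0.59 and 0.54. Msh5 and Mei1 were called lower by -0.50 and -0.39, and both calls were lost under spike-in scaling. Of 18 cohesin genes, 1 was strongly higher, Esco2, the cohesin acetyltransferase, at -0.79 and -0.88 with V5 against -1.71 and -2.38 with IgG (difference 1.21). Smc1a and Espl1 were called lower by -0.56 and -0.52, calls lost under spike-in scaling, and Smc1a was also not called without V5 replicate 2 (adjusted p = 0.054). Without IgG replicate 1, 6 recombination and 6 cohesin genes were strongly higher, and 2 cohesin genes were without V5 replicate 2.

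Small-RNA pathway genes were strongly higher in a minority of cases. For the piRNA pathway, which silences transposons in the germline, 5 of 19 genes (26.3%) were strongly higher, and for Argonaute and microRNA processing 5 of 17 (29.4%), which fell to 3 without V5 replicate 1 or IgG replicate 2. No gene of either list was strongly lower. Transcripts of later spermatocytes and spermatids, which are rare in a testis of this age, had none of 26 strongly higher and 4 strongly lower (median -0.36). Tssk6, a spermatid kinase, was at -2.29 and -2.64 with V5 against -1.6 and -1.45 with IgG (difference -0.94). Tnp2, a transition protein of spermatid chromatin, was at -4.3 and -4.64 against -3.61 and -3.38 (-0.98), and Acr, the acrosomal protease acrosin, differed by -0.52, a call lost under spike-in scaling. The number strongly lower was 1 without V5 replicate 2 and 2 without IgG replicate 2. Of the 24 above background on all 4 arrays, 3 were strongly lower. In the reduced fit the only strongly higher genes of the 6 lists from synaptonemal complex to spermatid were 1 synaptonemal and 2 microRNA-pathway genes, and 3 spermatid genes were strongly lower.

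Cell-cycle lists differed in how many of their genes were higher. Of 57 cyclins, cyclin-dependent kinases, their inhibitors and E2f factors, 19 were strongly higher and none strongly lower (median 0.12). E2f5 was at 2.83 and 2.73 with V5, 1.67 and 1.68 with IgG and 1.7 and 1.83 in input (difference 1.10), and Cdk2 was higher by 0.87. Pkmyt1, a kinase that inhibits Cdk1, and Cdk5 were called lower by -0.44 and -0.47, calls lost under spike-in scaling. Replication licensing and fork genes had 11 of 46 strongly higher (median 0.11), with Dbf4 (0.72), Orc6l, now Orc6 (0.66), and the licensing inhibitor Gmnn (0.58) among them. Pold4 (-0.58) and Mcm5 (-0.40) were called lower, again not under spike-in scaling. No gene of this list or of the kinetochore list was strongly lower.

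Kinetochore and spindle checkpoint genes had 8 of 48 members strongly higher (median 0.05), including Spc25 and Cenpq, at 1.53 and 1.43 with V5 against 0.41 and 0.06 with IgG (difference 1.24), and also Aurkb (0.65). Mad1l1 was lower by -0.42, a call lost under spike-in scaling. In the anaphase-promoting complex 2 of 15 were strongly higher, a count that was 1 without either V5 array and 0 without IgG replicate 2 or in the reduced fit.

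Apoptosis genes split. Of 39 Bcl2-family, caspase and apoptosome genes, 9 were strongly higher and 2 strongly lower (median -0.03), and without IgG replicate 2 1 was strongly lower. Of the 35 above background on all 4 arrays, 8 were strongly higher and 1 strongly lower. Pmaip1, the BH3-only protein Noxa, was at 1.41 and 1.24 with V5, -0.22 and -0.31 with IgG and 0.32 and 0.31 in input (difference 1.59, adjusted p = 0.00075). Casp2, an initiator caspase, was at 5 and 4.9 with V5 against 3.97 and 4.13 with IgG (difference 0.90). The p53 family went both ways within the same arrays. Trp63, the family member that guards oocytes, was higher by 1.04, Trp73 was at -2.99 and -3.16 with V5 against -2.1 and -1.76 with IgG (difference -1.15), and Trp53 was at -0.47 and -0.63 against 0.05 and 0.3 (-0.72). Bax was called lower by -0.45, which was lost under spike-in scaling, as those of Trp53 and Trp73 were not. Strongly higher in the reduced fit were 5 cyclin-list, 1 replication, 6 kinetochore and 5 apoptosis genes, with 2 apoptosis genes strongly lower.

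Ubiquitin-conjugating enzymes and the translocon each had 42.4% of their measured genes strongly higher. Of 33 ubiquitin-conjugating enzymes, 14 were strongly higher and none strongly lower (median 0.13). Ube2b, needed in spermatogenesis, was at 5.43 and 5.27 with V5, 4.23 and 4.03 with IgG and 4.39 and 4.44 in input (difference 1.22), with all 5 probes higher. Ube2e2 (1.05) and Ube2t (0.83) were also higher, and Cdc34 was lower by -0.47, a call lost under spike-in scaling. Of 47 ubiquitin-specific proteases, 6 (12.8%) were strongly higher, close to the 12.9% of all genes, none was strongly lower (median 0.02), and no gene passed in the reduced fit.

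Of 33 genes of the translocon, signal peptidase and signal recognition particle, 14 were strongly higher and none strongly lower (median 0.30). Ssr1, a translocon-associated protein, was at 3.94 on both V5 arrays, 2.85 and 2.69 with IgG and 3.24 and 3.21 in input (difference 1.17). Its 3 probes ranged from 0.10 to 1.17. Spcs2, a signal peptidase subunit, was at 5.3 and 5.08 against 4.03 and 4.05 (1.15), Tloc1, now Sec62, was higher by 1.19 and Spcs3 by 0.88. Ssr2, a partner of Ssr1 in one complex, was at 3.94 and 3.9 against 4.28 and 4.55 (difference -0.49), a call lost under spike-in scaling. Rab GTPases and coat proteins had 13 of 64 strongly higher and 3 strongly lower (median 0.00), with Rab1, now Rab1a (1.34), and Rab18 (0.86) among the higher. Of the 61 above background on all 4 arrays, 12 were strongly higher and 1 strongly lower.

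Chaperonin and prefoldin genes had 6 of 15 strongly higher and none strongly lower (median 0.08). Besides Vbp1 the prefoldin subunits Pfdn2, at 4.74 on both V5 arrays against 3.61 and 3.65 with IgG (difference 1.11), and Pfdn4 (0.91) were higher, and the chaperonin subunit Cct2 by 0.48. Nucleoporins and transport factors had 13 of 55 strongly higher and none strongly lower (median 0.06), including Nxt2, Nupl1 (1.61) and Kpna3 (0.98), an importin. RNA exosome and decapping genes had 7 of 39 strongly higher and none strongly lower (median -0.10), including Lsm3 (1.27) and Mphosph6 (1.08). Intraflagellar transport genes had 4 of 37 strongly higher, which fell to 1 without V5 replicate 1 or IgG replicate 2. Strongly higher in the reduced fit were 8 ubiquitin-conjugating, 5 translocon, 5 Rab and coat, 1 chaperonin, 3 nucleoporin, 4 exosome and no intraflagellar transport genes, and 1 Rab or coat gene was strongly lower.

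**Figure D4:**
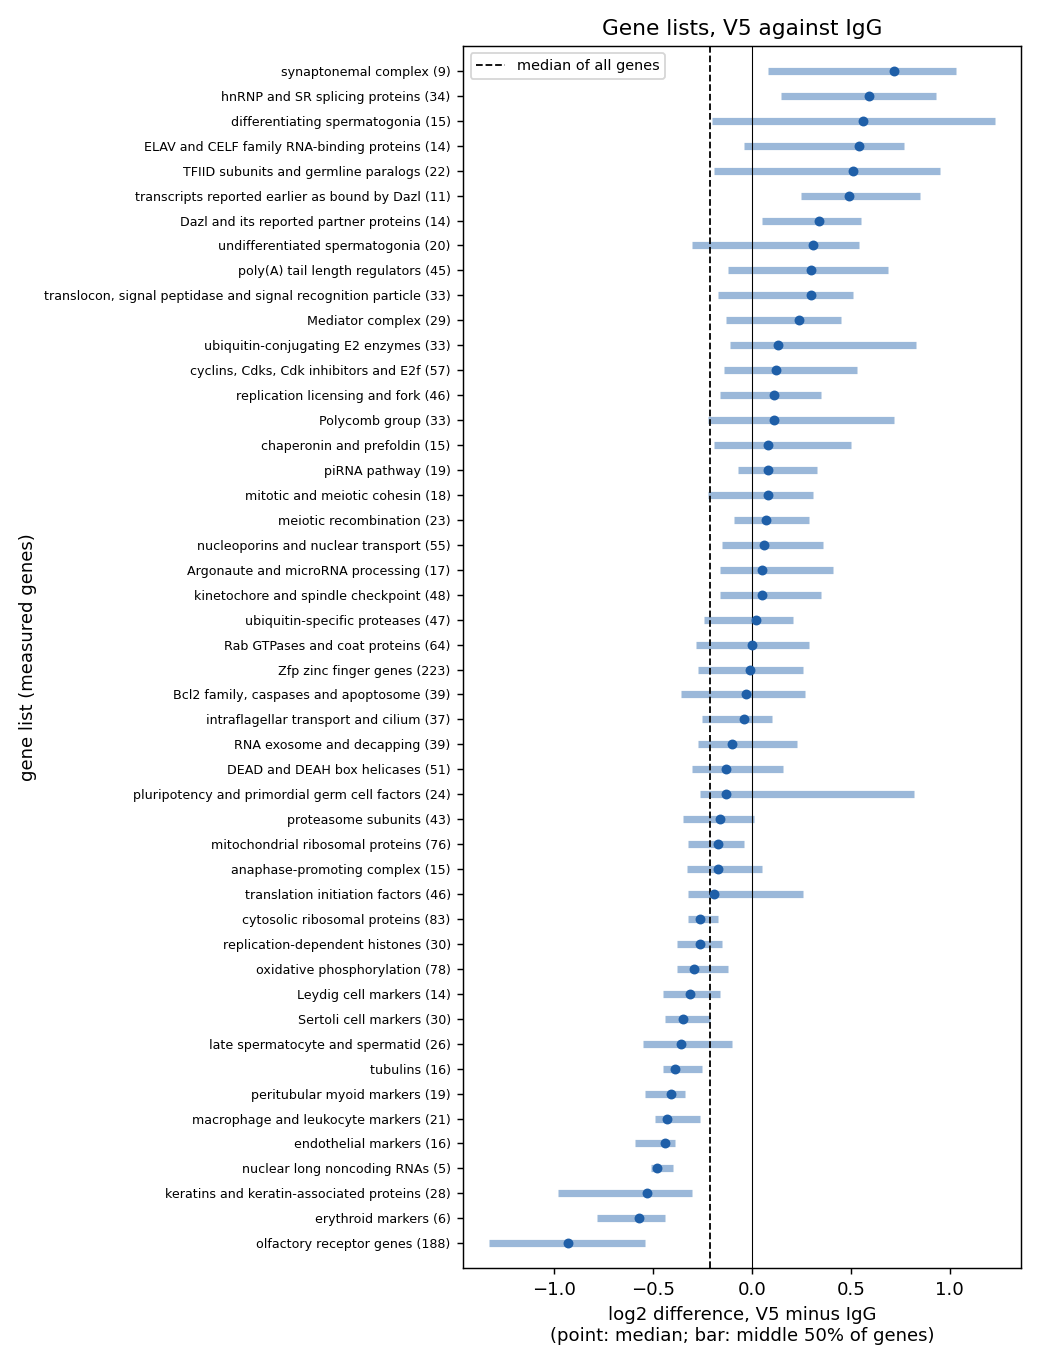
Median (point) and middle 50% (bar) of the log2 difference V5 minus IgG for each gene list (y axis, with the number of measured genes). Lists for the synaptonemal complex (median 0.72, or 0.33 without IgG replicate 2) and splicing proteins (0.59) lie farthest above the dashed median of all genes, and olfactory receptors (-0.93) farthest below.

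Abundant housekeeping transcripts stayed with the bulk. Of 83 cytosolic ribosomal protein genes, 1 was strongly higher and none strongly lower, with a median of -0.26 and a middle 50% from -0.32 to -0.17. The count of 1 became 2 without IgG replicate 1 and 0 when any other of the 4 arrays was left out. Rps14 was at 7.76 and 7.78 with V5, 8.16 and 8.18 with IgG and 7.8 and 7.83 in input. The IgG arrays were the high ones and V5 lay near input. Rps14 was called lower by the 75th-percentile scale (difference -0.40) and not under spike-in scaling.

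Oxidative phosphorylation genes had 1 of 78 strongly higher, a count of 2 without IgG replicate 1, and a median of -0.29, with Cyc1 and Ndufb7 both at a difference of -0.48 that was not called under spike-in scaling. Proteasome subunits had 4 of 43 strongly higher (median -0.16). Mitochondrial ribosomal proteins had 7 of 76 strongly higher (median -0.17), among them Mrps14, at 2.63 and 2.55 with V5 against 1.61 and 1.29 with IgG (difference 1.14), and Mrpl44 (0.64). None of these 3 lists had a strongly lower member. Tubulins had 1 of 16 strongly higher and 1 strongly lower (median -0.39). Of the 15 above background on all 4 arrays, 1 was strongly higher and none strongly lower. The reduced fit left 1 oxidative phosphorylation and 2 mitochondrial ribosomal genes strongly higher, and no cytosolic ribosomal, proteasome or tubulin gene strongly changed.

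Histone transcripts were not uniform. Of 30 replication-dependent histone genes 3 were strongly higher and 1 strongly lower (median -0.26), and 3 were strongly lower without IgG replicate 2. In the reduced fit 1 was strongly higher and 1 strongly lower. Hist2h3c1, now H3c14, was at 7.86 and 7.81 with V5, 6.95 and 6.99 with IgG and 7.13 and 7.23 in input (difference 0.87), and Hist1h3d, now H3c4, at 7.24 and 7.18, 6.32 and 6.44, and 6.38 and 6.59 (0.83). H3 genes are near-identical in sequence, so their probes may read the same transcripts. H3f3b, the replacement histone H3.3 gene with a polyadenylated mRNA, was at 8.31 and 8.26 with V5, 7.37 and 7.32 with IgG and 7.35 and 7.51 in input (difference 0.94, adjusted p = 0.0012). H2afv (0.52) and Phf13 (0.49), the other genes of this group of very bright strongly higher probes, were also above both controls on both V5 arrays.

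Markers of somatic testis cells lay below the bulk of genes. Their median difference was -0.41, or -0.21 relative to the median of all genes, and it was also -0.21 relative to that median under spike-in scaling. Over all genes 16.7% were called higher and 40.4% lower. Of 27 measured somatic markers, none was called higher and 23 were called lower, and 1 was strongly lower. None was strongly lower with only probes above background on all 4 arrays. The lower calls numbered 13 without V5 replicate 1, 1 in the reduced fit and 0 under spike-in scaling, where 1 marker was called higher. Their summed signal, in multiples of each array's 75th percentile, was 355 and 357 in input, 295 and 298 with IgG and 227 and 218 with V5. These totals lean on a few bright genes, above all the Sertoli gene Clu. The Sertoli markers alone summed to 190 and 194 in input, 186 and 184 with IgG and 144 and 135 with V5. The germ-cell set of Dazl, Ddx4, Sycp3 and Sycp1 summed to 45.6 and 45.3 in input, 12.1 and 8.73 with IgG and 16.7 and 16.1 with V5. These sums describe the RNA recovered in each group and do not measure the share of cells of a type. Slide and antibody cannot be told apart, and the cause of the differences between these sums was not tested.

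In the longer marker lists, none of 30 Sertoli, 14 Leydig, 19 peritubular myoid, 21 leukocyte, 16 endothelial or 6 erythroid genes was strongly higher. Their medians were -0.35, -0.31, -0.41, -0.43, -0.44 and -0.57, all below the -0.21 of all genes, with 1 endothelial and 2 erythroid genes strongly lower. Those counts were 0 and 1 without V5 replicate 1 or IgG replicate 2, and the erythroid count was 1 without V5 replicate 2. No endothelial gene was strongly lower among the 14 above background on all 4 arrays. In the reduced fit no gene of these lists was strongly lower. Clu, a Sertoli product, was at 6.91 and 6.83 with V5, 7.32 and 7.3 with IgG and 7.41 and 7.44 in input (difference -0.44). Tagln, of myoid cells, was at 2.38 and 2.47 with V5, 2.97 and 3.02 with IgG and 3.63 and 3.62 in input (-0.57), so it was highest in input, then IgG, then V5. Nr5a1 (-0.56), a steroidogenic factor, C1qb of macrophages (-0.65), and the endothelial genes Vwf (-0.56) and Cldn5 (-0.49) were also called lower. The Sertoli gene Espn (-0.62) was the one named marker that remained called lower under spike-in scaling, while Clu, Tagln, Nr5a1, C1qb, Vwf and Cldn5 did not. The part of this shift in the germ-cell differences was not tested. The noncoding RNA H19 was at 0.18 and 0.35 with V5, 0.73 and 0.76 with IgG and -0.3 and -0.22 in input (difference -0.48), a call lost under spike-in scaling.

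The strongly lower genes were dim. Of 1146, 1130 (98.6%) had an IgG level below the array's 75th percentile, against 52.7% of all genes, and 523 were not well above background on at least 1 V5 array. Their median level was -3.61 and -3.35 on the IgG arrays, -4.69 and -4.71 on the V5 arrays and -3.83 and -3.75 in input. Their input values lay near IgG, and both V5 arrays lay below both input arrays in 1056 of them (92.1%). Among the 623 above background on all 4 arrays this held for 568 (91.2%). The V5 values chose these genes, so the shares carry no test, and input shared its slide with IgG and not with V5. When genes were put into 5 equal bins by input level, the strongly lower share was 22% in the dimmest bin, 9.6% in the next, 0.9% in the middle bin and 0.1% and 0.0% in the brightest bins. The strongly higher share was 5.9%, 10.1%, 15.7%, 18% and 14.9% in the same order. Dim genes may have entered only because a brighter group read them above background, which leans their differences toward that group. The bins were not repeated on genes above background on all 4 arrays. With local background subtracted in place of the scanner's processed signal, a choice made after the data were seen, 463 genes were strongly lower. With only probes above background on all 4 arrays, 655 were.

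Olfactory receptor genes, most of which act in the nose, made up a visible share of the dim set. Of 188 with a measured probe, 91 were strongly lower and none strongly higher, with a median of -0.93. Only 93 were above background on all 4 arrays, and the others entered because both arrays of at least 1 of the 4 groups read them above background, so the count and median over all 188 lean on the brighter group. Of those 93, 39 were strongly lower (median -0.72), against 623 of all 15987 genes above background on these arrays. The count of 91 became 50 without IgG replicate 2, 58 under spike-in scaling and 26 in the reduced fit. Olfr374 was at -4.71 and -4.77 with V5, -3.29 and -3.14 with IgG and -3.63 and -3.48 in input (difference -1.52, adjusted p = 0.00084), and Olfr43 at -4.65 and -4.2, -2.43 and -2.36, and -2.47 and -2.41 (-2.03). Input and IgG, which shared a slide, lay close together and V5 was low. Keratins and keratin-associated proteins, products of skin and hair, had 6 of 28 strongly lower and none strongly higher (median -0.53), with Krtap16-10 at a difference of -1.15, and 7 were strongly lower in the reduced fit. Of the 22 above background on all 4 arrays, 5 were strongly lower.

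The 15 lowest genes with a gene symbol and above background on all 4 arrays, all dim with IgG, lay between -1.76 and -2.15. Setbp1, a SET-binding nuclear protein, was at -4.17 and -4.06 with V5, -2.46 and -2.18 with IgG and -2.61 and -2.74 in input (difference -1.79, SE 0.12, adjusted p = 0.00075). Scn4a, the skeletal muscle sodium channel, was at -3.71 and -3.63 against -2.01 and -1.8 (difference -1.76, adjusted p = 0.0011), and Ifnab, an interferon gene, at -3.9 and -3.92 against -2.14 and -1.81 (difference -1.94, adjusted p = 0.0039). Rnf148 had the largest difference, -2.15, but its IgG arrays read -1.63 and -4.05, and its call was lost without V5 replicate 1 (adjusted p = 0.14) or V5 replicate 2 (adjusted p = 0.085). Rbp2 and Olfr577 also lost their calls in such fits. Rbp2 had adjusted p of 0.10 without V5 replicate 1 and 0.076 without V5 replicate 2, and Olfr577 had 0.079 without V5 replicate 1 and 0.077 without IgG replicate 2. The others of the 15 were Car1, Cmar, Pdzk1ip1, Crygd, Zfhx2as, Ly6g6c, Cel and Olfr549, with differences from -1.76 to -1.85.

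The share of differences also varied with gene size. Among 14028 genes matched to RefSeq, ordered into 5 bins by the length of genome they span, the strongly higher share was 7.3% in the shortest bin, 13.1%, 14.6% and 18.5% in the next ones and 14.2% in the longest. The strongly lower share was 11.2% in the shortest bin and 3.1% to 4.6% in the others. Genomic span includes introns and is not transcript length.

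**Figure D5:**
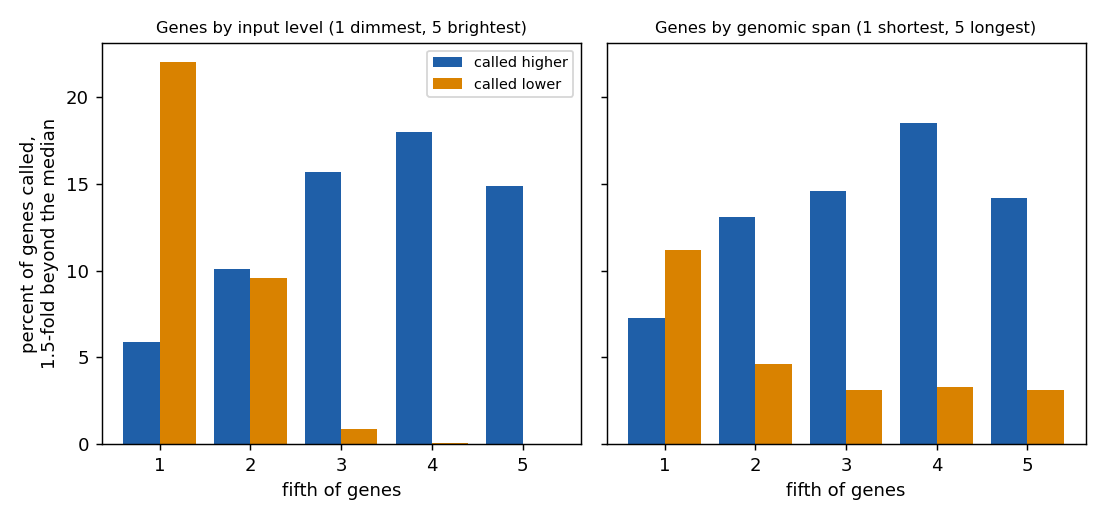
Percent of genes strongly higher (blue) and strongly lower (orange) in 5 bins of genes by input level (left) and by genomic span (right), on one y axis that starts at 0. Strongly lower genes concentrate in the dimmest input bin (22%), and strongly higher genes are least frequent there (5.9%) and in the shortest-span bin (7.3%). The bins include genes that entered only because a brighter group read them above background.

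Some transcripts were well above background on both arrays of the V5 or the IgG group and on neither array of the other. Several of them had higher levels in input or GFP than in the dimmer group. Against a floor set by the lowest signal well above background, Speer4f, now Speer4f1, was at least 2.19-fold higher with V5, with levels of -3.98 and -4.04 against -5.79 and -5.23 with IgG, where it was not well above background. Speer4a, of the same near-identical family, was at least 2.07-fold higher, and the transcription factor Zic1 at least 2.24-fold, at -3.85 and -3.86 against -5.16 and -4.92. Ranbp6, an importin-family gene, was at least 2.04-fold higher, a call lost without V5 replicate 1 (adjusted p = 0.066). Pawr, a pro-apoptotic regulator, was at least 4.74-fold higher, but its V5 arrays read -4.02 and -1.59 and its call was lost without either IgG array (adjusted p = 0.058 without IgG replicate 1 and 0.12 without IgG replicate 2). In the opposite direction Sox14 was at least 4.07-fold and Ryr3, a calcium release channel, at least 3.59-fold lower with V5, where neither was well above background. The Ryr3 call was lost without V5 replicate 1 (adjusted p = 0.053) or IgG replicate 2 (adjusted p = 0.052).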

How the data were processed

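The 8 scanner files hold processed spot intensities. Per the file headers, the authors ran Agilent Feature Extraction 9.1.3.1, which subtracts background and detrends each array without scaling between arrays; the genome build is not given in the sources used here. The deposited intensity of non-control spots was converted to log2, minus each array's 75th percentile. Outlier spots were dropped, spots of a probe averaged, probes kept if well above background on both arrays of a group, and the brightest probe per gene name used, leaving 17570 genes from 25629 probes. Of 5939 genes with several probes, 4457 had all probes on the same side of 0. Probes on the same side could still differ in size, from 0.25 to 1.10 for Lin28b. A group-means model over all 8 arrays was fitted with limma 3.58.1 in R 4.3.3 (4 residual and 2.41 prior degrees of freedom). Array number, and for dim probes the background, limit precision.

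On simulated data for V5 against IgG over 17570 genes, 41 of 50 genes raised by 1 on the log2 scale were recovered, 16 of 50 raised by 0.5, 33 of 50 lowered by 1 and 13 of 50 lowered by 0.5, with 3 false calls. The simulated noise was independent between genes and arrays, with no slide or scale shift and no other changed genes. These rates therefore do not give the error of the real comparison. Named genes are the 15 highest and 15 lowest called symbols, 5 bright ones, 5 bounds each way, all Dazl-list genes, and up to 4 per list and direction by p; not every one is printed, and some are not reported here. The members and lists were chosen with earlier results of these data known. RefSeq annotation (GRCm38.p6) matched 29610 probes. Same-numbered V5 and IgG arrays did not deviate together (r = 0.077), so numbers were not used as pairs. Alternatives covered scaling, background correction, filters, probes, weights and arrays left out. The authors' averaged series table holds no IgG group and was not used.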

Additional observations from a re-analysis of the deposited data

How the results depend on the processing

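Spike-in scaling gave 6246 higher and 914 lower calls. With normexp background correction limma called 0 genes in either direction, strong counts included, with 3687 at an unadjusted p under 0.05 (the cause was not tested). Local background subtraction, added after the data were seen, gave 463 strongly lower genes, and keeping only probes above background on all 4 arrays gave 655, from fewer genes. Leaving out 1 array gave 1925 to 3330 higher, 4106 to 7292 lower, 1776 to 2798 strongly higher and 817 to 1290 strongly lower genes. Without V5 replicate 1 and input replicate 2 there were 657 higher calls, all of them strong, 591 lower and 496 strongly lower. The fit with the replicate number as a block gave 2872 higher and 6678 lower calls, and 2286 and 1110 strong ones, and the numbers do not pair the arrays. Of 161 called genes named above, 149 kept their call with each of the 4 arrays left out, and 66 lost it without V5 replicate 1 and input replicate 2. Directions reversed for Dazap1 (0.15), Pabpc1 (0.14) and Cdc25a (0.31) under spike-in scaling; for Dzip1 (-0.003) and Cdc25c (-0.003) with local background; for Pam (-0.10), Cdc25c (-0.08) and Cdc25a (0.37) with probes averaged; for Qk with normexp (-0.03); and for Sycp1 under quantile normalization (0.16), spike-in scaling (0.27) and the fit without V5 replicate 1 and input replicate 2 (0.03). With 1 array left out, values ranged from -0.13 to 0.24 for Qk, from -0.009 to 0.12 for Dzip1, from -0.04 to 0.28 for Pam and from -0.38 to 0.19 for Sycp1. Relative to the median of all genes, medians of the following lists reversed: RNA exosome and decapping (-0.009), mitochondrial ribosomal proteins (-0.15), proteasome subunits (-0.12) and keratins (0.02) with normexp, and mitochondrial ribosomal proteins with quantile normalization (-0.003) and with 1 array left out (from -0.03 to 0.08). Among lists that lay within 0.1 of the median of all genes, the sign also changed without IgG replicate 1 for cytosolic ribosomal proteins (0.04), oxidative phosphorylation (0.008) and histones (0.06), without V5 replicate 2 for initiation factors (-0.02), with quantile normalization for cytosolic ribosomal proteins (0.05), with probes averaged for histones (0.005), and with normexp for initiation factors (-0.15), helicases (-0.04) and the anaphase-promoting complex (-0.15). The cause of these reversals was not tested.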
